A study of Mus musculus with 96 samples.

Results

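The comparison set 3 samples of control C2C12 myoblasts treated with antimycin against 3 samples treated with oligomycin, chosen by their labels, which is 6 of the 96 RNA-seq samples of the series. C2C12 is an immortalized mouse muscle line that grows as single myoblasts and fuses into myotubes in low serum. The control cells carry a lentiviral luciferase gene under the doxycycline-inducible TRE3G promoter. All myoblast groups used, of the control and the LbNOX line, received 300 ng/ml doxycycline from 24 hr before treatment. No doxycycline is stated for the myotube samples. Proliferating cells in 24-well plates were kept in medium with 10 mM glucose, 4 mM glutamine and 10% dialyzed fetal bovine serum, without pyruvate or uridine, and were treated for 10 hr with 0.5 µM antimycin or 1 µM oligomycin. The doses of the inhibitors differ. The same cells given DMSO, the vehicle, for 10 hr (n = 3) serve as background, and the same contrast was read in 6 myoblast samples of a second line expressing LbNOX from the inducible promoter and in 6 samples of untransduced myotubes, 4 days after the switch to 2% dialyzed horse serum. Each line is 1 stable line, and the labels name no separate cultures behind the replicates, so p-values measure the spread between wells, which may be technical.

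Antimycin blocks complex III of the electron transport chain (ETC), so that electrons no longer pass from ubiquinol to cytochrome c, NADH oxidation and proton pumping stop, and enzymes that hand electrons to ubiquinone, among them dihydroorotate dehydrogenase of pyrimidine synthesis, lose their acceptor. Oligomycin blocks the proton channel of ATP synthase, so that ATP is no longer made in mitochondria, while a residual respiration goes on through the proton leak and the inner membrane becomes more polarized. Both blocks are known to engage the integrated stress response (ISR), in which phosphorylation of eIF2α slows general translation and favors that of the transcription factor ATF4, which in turn raises genes of amino acid supply and of stress signaling.

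The 3 antimycin libraries held 10160001 to 11718849 estimated counts and the 3 oligomycin libraries 9282791 to 12313851. Luciferase was found at 82.6 to 107 CPM (the counts of a gene scaled to the TMM-adjusted size of its library) with antimycin, 91.0 to 129.6 CPM with oligomycin and 172 to 184 CPM with DMSO, and no count fell on the other transgenes. A single non-coding transcript, CT010467.1, took 25.1 to 27.8% of counts in the 6 libraries. The 3 DMSO libraries and oligomycin replicate 1 carry outer position codes and the others inner ones. With a term for outer position, estimated over all myoblast libraries of the fit, 6967 genes in place of 7567 differed between antimycin and DMSO, and 5943 in place of 6079 between oligomycin and DMSO. All 9 myoblast markers were detected, at a summed level of 1508 to 1617 CPM with antimycin, 1237 to 1288 CPM with oligomycin and 1216 to 1243 CPM with DMSO. By the test described below, 6 of the 9 were higher with antimycin than with oligomycin and 2, Vcam1 and Ncam1, were lower. The 20 myotube markers summed to 92.3 to 98.5 CPM with antimycin, 26.8 to 35.1 CPM with oligomycin and 23.05 to 31.7 CPM with DMSO, most of it from Acta1, and the embryonic myosin heavy chain Myh3 stood at 0 in all 6 libraries. The 5 adipocyte markers summed to 0 to 5 counts in the 6 libraries and 2 to 11 counts with DMSO, the 5 endothelial markers to 1.66 to 2.98 CPM and 2.04 to 3.06 CPM with DMSO, and the 6 macrophage and blood cell markers to 6.505 to 6.85 CPM with antimycin, 1.04 to 1.93 CPM with oligomycin and 2.18 to 2.78 CPM with DMSO. In the antimycin libraries most of this last sum was the lysosomal gene Cd68. The part of these marker levels in the results was not tested.

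Complex III block and ATP synthase block gave widely different transcriptomes. Of 11978 genes tested, 5994 differed between the inhibitors at an adjusted p under 0.05 (edgeR quasi-likelihood test with Benjamini-Hochberg adjustment), a background of 50% in either direction. Of these, 3128 (26.1% of genes tested) were higher and 2866 (23.9%) were lower with antimycin. At least a 2-fold difference was found for 669 genes higher and 720 genes lower, and at least a 4-fold difference for 130 and 121 genes. The 3 antimycin libraries did not overlap the 3 oligomycin libraries in 6688 of all genes tested (55.8%) and in 5665 of the 5994 called. The median of all genes was 0.03 on the log2 scale. Levels are in CPM and are given in the order of replicates 1 to 3, "higher" and "lower" mean higher and lower with antimycin than with oligomycin at that threshold, and log2 fold changes (log2FC) are antimycin minus oligomycin. Against DMSO, 63.2% of genes differed with antimycin (32.1% above and 31.1% below DMSO) and 50.8% with oligomycin (24.5% and 26.3%), and "raised" is used of genes past the same threshold there. In these bulk samples, fewer cells with a transcript and less RNA per cell cannot be told apart.

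**Figure D1:**
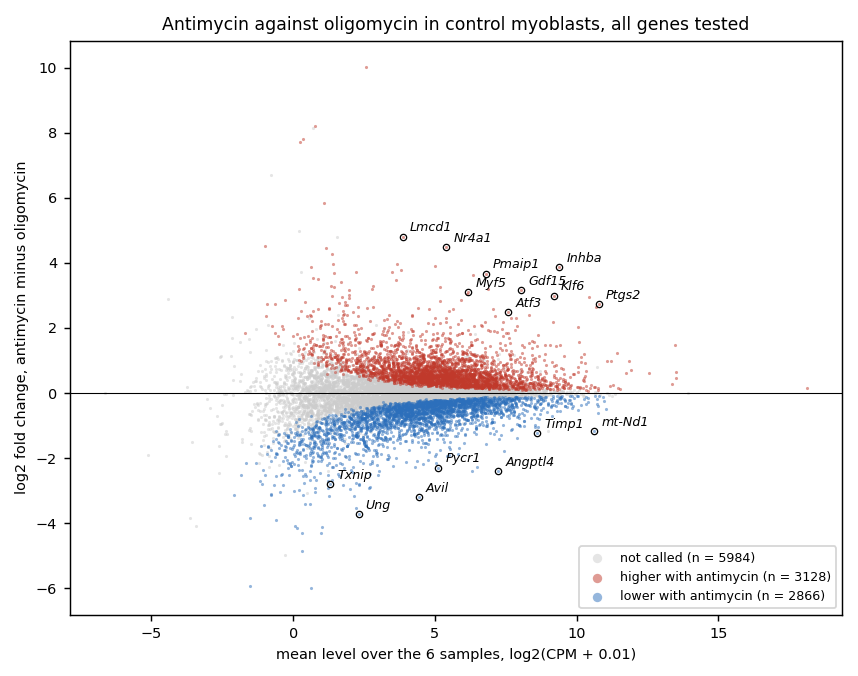
Each point is 1 of the 11978 genes tested, with its mean level over the 6 samples on the x axis (log2 of CPM plus 0.01) and its log2 fold change, antimycin minus oligomycin, on the y axis. Red points are the 3128 genes higher and blue points the 2866 genes lower with antimycin, grey points did not pass the test, and among the labeled genes are Inhba (3.86) and mt-Nd1 (-1.18) at high mean levels.

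The 10 well-measured genes with the largest positive differences were Lmcd1 (4.81), Nr4a1 (4.48), Cxcl10 (3.96), Csrnp1 (3.90), Inhba (3.86), Has1 (3.78), Plin4 (3.73), Pmaip1 (3.66), Ndrg4 (3.62) and Prrg4 (3.46). The 10 with the largest negative differences were Ung (-3.73), Avil (-3.20), Gpr141 (-2.93), Dennd2d (-2.84), Tfcp2l1 (-2.79), Map2k3os (-2.51), Hoxa7 (-2.49), Angptl4 (-2.40), Ifi211 (-2.39) and Fubp1 (-2.38). Map2k3os lies antisense to Map2k3 and the libraries keep no strand, so its reads cannot be told from those of its partner. Avil, which encodes the actin-binding protein advillin, stood at 5.29, 4.599 and 2.63 CPM with antimycin, 39.2, 39.7 and 37.4 CPM with oligomycin and 0.355, 0.136 and 0 CPM with DMSO. It was thus nearly silent without inhibitor, and the oligomycin libraries lay far above the antimycin libraries.

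Among the pathway lists with more than 1 gene tested, those of immediate early genes, MAP kinase phosphatases, clock genes, chemokines and ISR factors had the highest medians, and the mRNAs encoded by mitochondrial DNA the lowest. Their counts are to be read against the background of 26.1% higher and 23.9% lower over all genes.

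**Figure D2:**
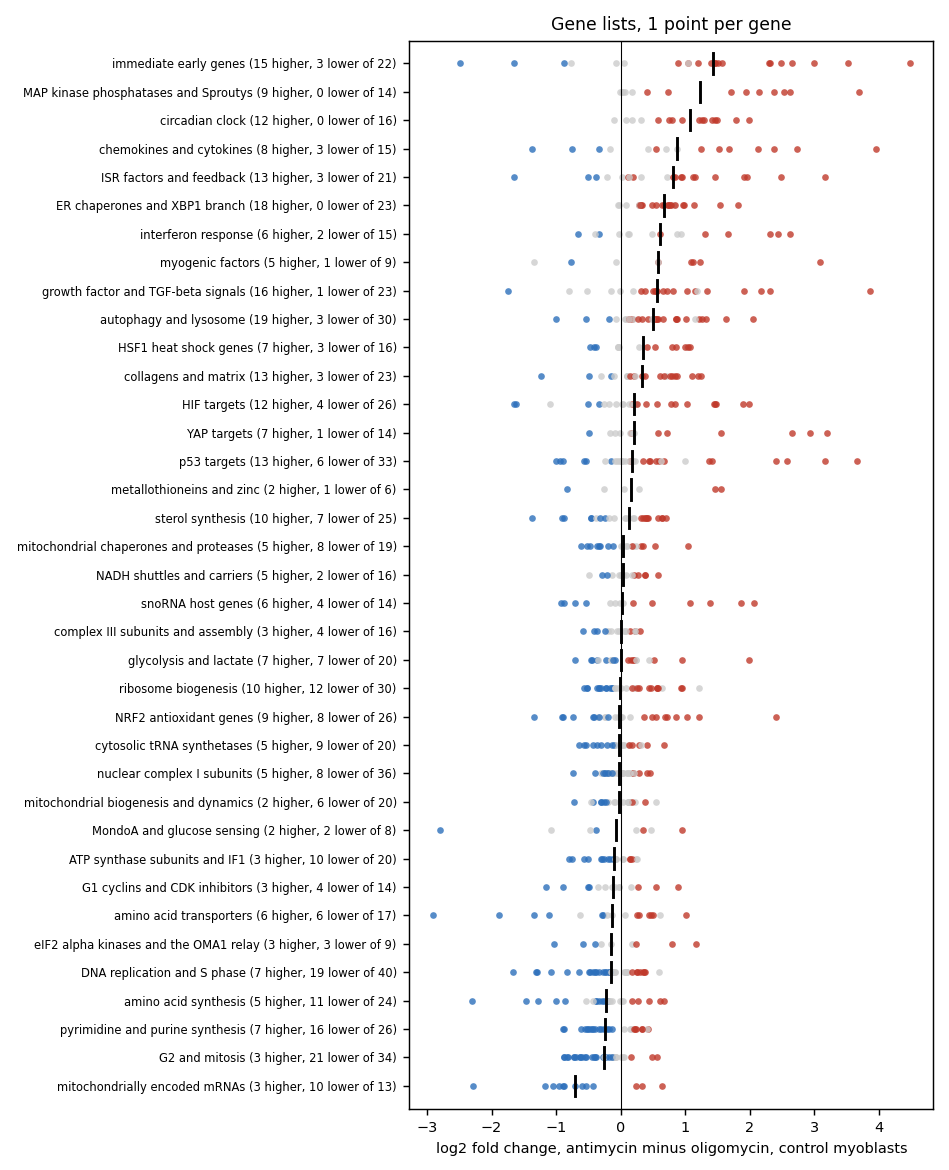
Each row is a gene list and each point a tested gene, placed on the x axis by its log2 fold change, antimycin minus oligomycin, in control myoblasts. Red points were higher, blue points lower and grey points did not pass the test, the black bar is the list's median, and lists run from immediate early genes (median 1.43) down to mitochondrially encoded mRNAs (median -0.71).

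Immediate early genes encode transcription factors that respond within minutes to growth factor and stress signals. Of 22 tested on this list, 15 were higher with antimycin and 3 were lower, with a median log2FC of 1.43. Nr4a1, an orphan nuclear receptor, stood at 75.8, 83.1 and 81.9 CPM with antimycin, 3.72, 4.02 and 2.95 CPM with oligomycin and 4.61, 2.65 and 3.41 CPM with DMSO. Its levels with oligomycin lay within the range of the DMSO libraries, and the antimycin libraries lay far above both (log2 fold change 4.48, SE 0.21, edgeR adjusted p = 3.85e-17). Klf6, a zinc finger factor, stood at 1034, 1069 and 1018 CPM with antimycin, 130.3, 137 and 126 CPM with oligomycin and 112, 108 and 108 CPM with DMSO. Again the antimycin libraries were the ones that stood apart (log2 fold change 2.99, SE 0.054, edgeR adjusted p = 1.82e-27). Jun, a subunit of AP-1, stood at 349.6, 339.6 and 327 CPM with antimycin, 68.8, 65.8 and 70.8 CPM with oligomycin and 100.1, 92.96 and 91.9 CPM with DMSO, so that oligomycin lay below and antimycin above DMSO (log2 fold change 2.31, SE 0.053, edgeR adjusted p = 5.92e-25).

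The response was not shared by all early genes. The AP-1 subunit Fosl2 was higher, at 74.00, 64.7 and 71.6 CPM with antimycin, 13.1, 14.6 and 15.1 CPM with oligomycin and 12.4, 16.1 and 12.02 CPM with DMSO (log2 fold change 2.30, SE 0.13, edgeR adjusted p = 6.19e-15). Fos itself stood at 3.03, 1.68 and 2.18 CPM with antimycin, 3.03, 2.09 and 2.16 CPM with oligomycin and 1.68, 2.18 and 3.14 CPM with DMSO, with overlapping groups and no difference past the threshold (log2 fold change -0.07, SE 0.35, edgeR adjusted p = 0.883). Egr1, a serum-responsive zinc finger factor, went the other way. It stood at 21.8, 20.9 and 22.8 CPM with antimycin, 65.9, 69.5 and 71.4 CPM with oligomycin and 69.6, 104 and 103 CPM with DMSO, and every antimycin library lay below every oligomycin library (log2 fold change -1.66, SE 0.11, edgeR adjusted p = 2.98e-13). Egr3 (log2FC -2.49) and Junb (-0.88) were the other members lower with antimycin.

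MAP kinase phosphatases (DUSPs) and Sprouty proteins turn down the ERK, JNK and p38 cascades. Of 14 tested, 9 were higher with antimycin and none was lower, with a median log2FC of 1.23. With no count filter 1 was lower and the median was 0.72, and with only the groups compared it was 0.70. Dusp1, which acts on p38 and JNK, stood at 184, 192 and 182 CPM with antimycin, 48.3, 49.8 and 46.9 CPM with oligomycin and 23.6, 25.2 and 25.6 CPM with DMSO. The groups formed 3 separate steps, DMSO below oligomycin below antimycin (log2 fold change 1.94, SE 0.079, edgeR adjusted p = 8.87e-19). Dusp8, a phosphatase of JNK and p38, stood at 35.7, 34.4 and 39.3 CPM with antimycin, 5.19, 5.27 and 7.38 CPM with oligomycin and 3.01, 2.11 and 2.15 CPM with DMSO, in the same order (log2 fold change 2.63, SE 0.19, edgeR adjusted p = 8.47e-13). Dusp10, which also acts on JNK and p38, stood at 81.7, 74.5 and 75.4 CPM with antimycin, 14.3, 13.8 and 11.9 CPM with oligomycin and 14.1, 12.6 and 18.8 CPM with DMSO, where the oligomycin and DMSO libraries overlapped and those of antimycin were higher (log2 fold change 2.52, SE 0.13, edgeR adjusted p = 3.68e-16). Dusp4 was higher as well (log2FC 2.37). Dusp6, the phosphatase of ERK in the cytoplasm, stood at 53.7, 52.5 and 53.8 CPM with antimycin, 53.1, 51.04 and 58.2 CPM with oligomycin and 63.7, 58.8 and 60.1 CPM with DMSO and did not pass the test (log2 fold change -0.02, SE 0.087, edgeR adjusted p = 0.881).

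The promoters of Dusp1 and Dusp8 are shown because both hold a whole cyclic AMP response element (CRE, TGACGTCA), the letters bound by factors of the CREB, ATF and AP-1 families. Capitals mark each match. Sequences are RefSeq promoters of mouse build GRCm38.p6, from 250 bases before to 50 after the start, written 5′ to 3′ on the strand of the gene. Dusp1 lies at chr17:26508423-26508722 (minus strand) and Dusp8 at chr7:142095235-142095534 (minus strand).
Dusp1: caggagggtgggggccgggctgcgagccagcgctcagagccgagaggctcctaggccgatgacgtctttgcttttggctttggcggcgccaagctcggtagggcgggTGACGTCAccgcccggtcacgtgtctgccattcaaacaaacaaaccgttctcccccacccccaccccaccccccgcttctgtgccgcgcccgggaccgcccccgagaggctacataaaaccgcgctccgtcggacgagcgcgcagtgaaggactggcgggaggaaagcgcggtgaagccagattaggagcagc
Dusp8: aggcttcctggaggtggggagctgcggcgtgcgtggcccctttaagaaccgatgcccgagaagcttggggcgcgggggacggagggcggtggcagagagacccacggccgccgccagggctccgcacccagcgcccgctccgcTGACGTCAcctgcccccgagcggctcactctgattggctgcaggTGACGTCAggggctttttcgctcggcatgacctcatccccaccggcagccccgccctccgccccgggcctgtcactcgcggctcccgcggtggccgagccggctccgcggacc
Searched on both strands, the CRE was found in 1.79% of all 32851 promoters in the table and in 3.23% of those of tested genes, of which 8828 had a promoter there. Among genes at least 2-fold higher with antimycin, 5.25% of promoters held it, and among those at least 2-fold lower 2.61%. On the phosphatase list, 3 of 14 promoters (21.4%) held it, those of Dusp1, Dusp8 and Errfi1. A match is a description of letters and not of binding.

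Secreted growth factors and their feedback genes were mostly higher with antimycin, in 16 of 23 tested, with 1 lower and a median of 0.56. The single lower call became 2 without antimycin replicate 2 or without oligomycin replicate 3. Inhba, which encodes the subunit of activin A, stood at 1278, 1247 and 1223 CPM with antimycin, 91.3, 83.7 and 82.2 CPM with oligomycin and 52.6, 55.5 and 52.3 CPM with DMSO. The antimycin libraries were 14.6-fold above those of oligomycin in the mean, and oligomycin itself lay a little above DMSO (log2 fold change 3.86, SE 0.068, edgeR adjusted p = 1.7e-27). Tgfb2, a TGF-β ligand, was higher with a log2FC of 2.17.

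Targets of the coactivator YAP counted 7 higher and 1 lower of 14, with a median of 0.20. Some members differed far more than the median. Cyr61, a matricellular signal protein, stood at 2817, 2841 and 2864 CPM with antimycin, 466, 449 and 442 CPM with oligomycin and 397, 401 and 426 CPM with DMSO. Oligomycin and DMSO differed little and antimycin stood far above them (log2 fold change 2.65, SE 0.048, edgeR adjusted p = 1.82e-27). Ctgf, another matricellular protein, stood at 2692, 2302 and 2367 CPM with antimycin, 335, 319 and 305 CPM with oligomycin and 169, 175 and 185 CPM with DMSO (log2 fold change 2.94, SE 0.066, edgeR adjusted p = 3.55e-25). F3, the tissue factor that starts coagulation, stood at 222, 206 and 214 CPM with antimycin, 24.2, 26.02 and 19.5 CPM with oligomycin and 13.2, 17.9 and 13.2 CPM with DMSO (log2 fold change 3.19, SE 0.13, edgeR adjusted p = 9.32e-19). In each of the 3 genes, the antimycin libraries lay above the other 6.

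Of 15 chemokines and cytokines tested, 8 were higher and 3 lower, with a median of 0.87. Cxcl10, an interferon-inducible chemokine, stood at 20.6, 25.01 and 26.00 CPM with antimycin, 1.38, 1.004 and 2.27 CPM with oligomycin and 0.443, 0.613 and 0.448 CPM with DMSO. Its error is wide beside the low levels outside antimycin (log2 fold change 3.96, SE 0.50, edgeR adjusted p = 1.09e-07). Ptgs2, the inducible cyclooxygenase of prostaglandin synthesis, stood at 3154, 3049 and 2978 CPM with antimycin, 470.3, 437 and 481 CPM with oligomycin and 67.7, 67.8 and 73.98 CPM with DMSO. Both inhibitors raised it over DMSO, antimycin the more (log2 fold change 2.73, SE 0.069, edgeR adjusted p = 8.59e-24). Of 15 interferon response genes, 6 were higher and 2 lower. Ifit1, a sensor of foreign RNA, was higher, at 26.04, 27.1 and 28.2 CPM with antimycin, 8.65, 7.61 and 9.43 CPM with oligomycin and 1.33, 2.18 and 1.44 CPM with DMSO (log2 fold change 1.66, SE 0.26, edgeR adjusted p = 4.1e-06). The 2 lower calls became 1 when any 1 of the 6 libraries other than antimycin replicate 2 was left out.

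**Figure D3:**
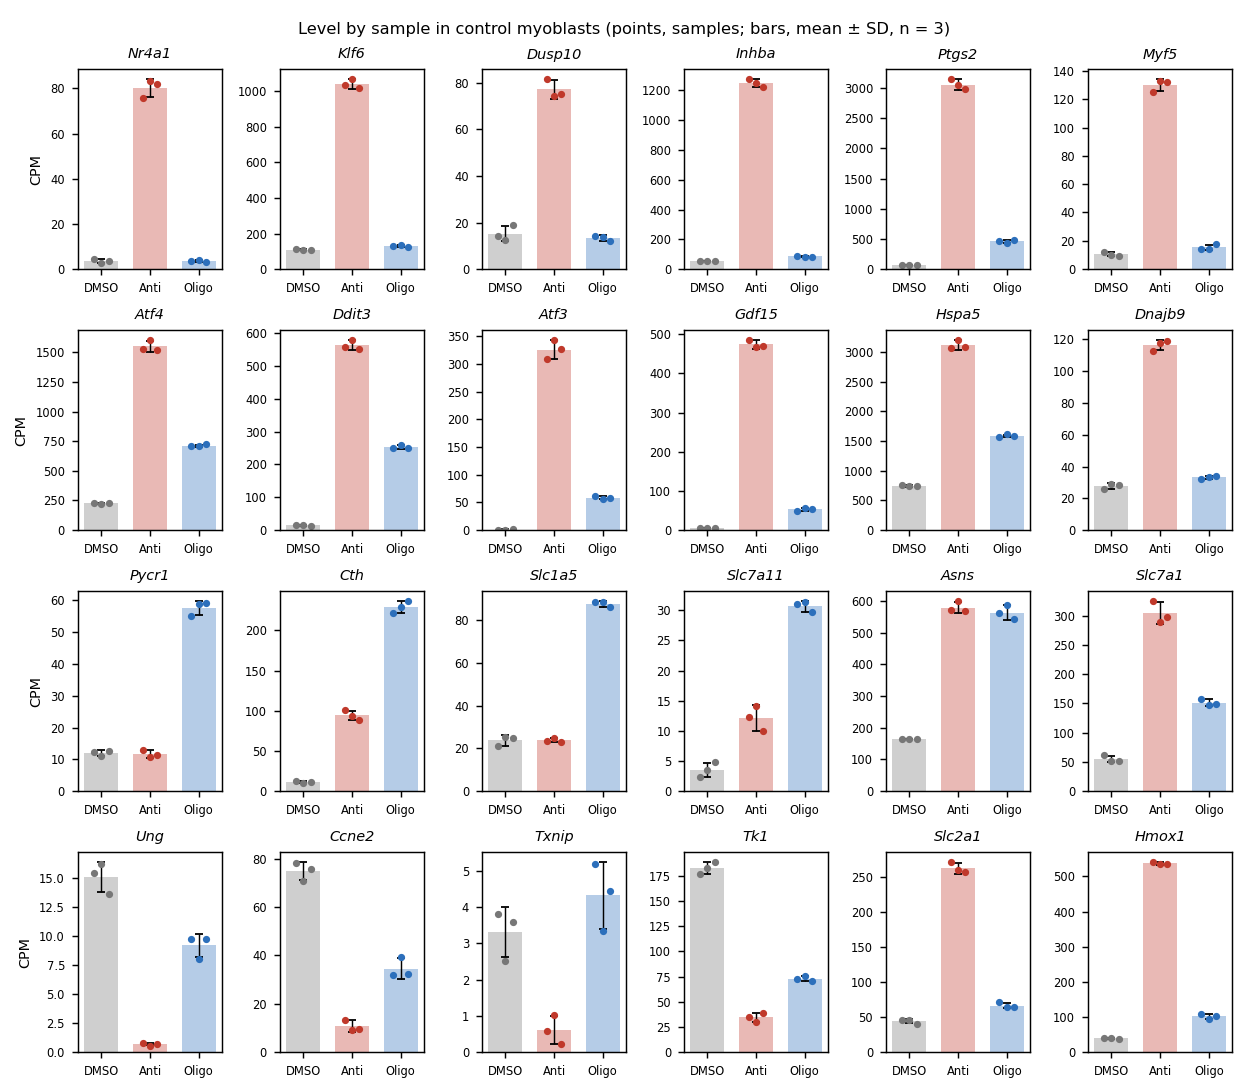
Levels in CPM (y axis, linear, from 0, with a scale of its own in each panel) of 24 genes in control myoblasts given DMSO, antimycin or oligomycin; points are the 3 samples and bars show mean ± SD. In the top row, Nr4a1, Klf6, Dusp10, Inhba, Ptgs2 and Myf5 are highest with antimycin, and in the third row Pycr1, Cth, Slc1a5 and Slc7a11 are highest with oligomycin, while the inhibitor groups overlap in Asns.

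ISR transcription factors and their feedback genes were mostly higher with antimycin. Of 21 tested, 13 were higher and 3 lower, with a median of 0.80. Against DMSO, the list's median was 2.78 for antimycin and 2.47 for oligomycin, from comparisons that share the DMSO samples. Atf4, the central transcription factor, stood at 1531, 1606 and 1520.0 CPM with antimycin, 709, 708 and 723 CPM with oligomycin and 226, 219.9 and 233 CPM with DMSO. Both inhibitors lay above DMSO and antimycin lay above oligomycin with no overlap (log2 fold change 1.12, SE 0.032, edgeR adjusted p = 1.26e-22). Ddit3, which encodes CHOP, stood at 558, 579.8 and 552 CPM with antimycin, 250.2, 259.6 and 251 CPM with oligomycin and 16.7, 14.97 and 13.4 CPM with DMSO, in the same order (log2 fold change 1.15, SE 0.057, edgeR adjusted p = 1.31e-16). Atf3, a target of both factors, stood at 309, 344 and 327 CPM with antimycin, 61.8, 55.4 and 58.6 CPM with oligomycin and 0.621, 1.02 and 1.17 CPM with DMSO. It was near 0 without inhibitor, and its mean with antimycin was 5.57-fold that with oligomycin (log2 fold change 2.48, SE 0.14, edgeR adjusted p = 2.7e-15).

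Gdf15, a circulating stress signal with the largest difference of the list, stood at 486, 467 and 469 CPM with antimycin, 49.5, 55.98 and 53.4 CPM with oligomycin and 4.52, 5.72 and 5.29 CPM with DMSO, with antimycin 8.95-fold above oligomycin (log2 fold change 3.16, SE 0.10, edgeR adjusted p = 2.22e-21). Fgf21, a hormone that muscle releases under mitochondrial stress, stood at 30.5, 26.4 and 30.9 CPM with antimycin, 6.66, 6.53 and 10.3 CPM with oligomycin and 0.177, 0.06805 and 0.0897 CPM with DMSO (log2 fold change 1.91, SE 0.28, edgeR adjusted p = 9.42e-07). The 3 members lower with antimycin were Vldlr (-1.66), the partner factor Cebpg (-0.50) and the tRNA exporter Xpot (-0.38). Vldlr, a lipoprotein receptor, stood at 13.1, 12.6 and 10.2 CPM with antimycin, 39.4, 37.7 and 36.5 CPM with oligomycin and 1.68, 2.18 and 1.17 CPM with DMSO, so that both inhibitors raised it but oligomycin the more (log2 fold change -1.66, SE 0.14, edgeR adjusted p = 5.73e-11). Sesn2, a restrainer of mTORC1, stood at 88.7, 96.5 and 104 CPM with antimycin and 93.5, 99.1 and 93.1 CPM with oligomycin, where the groups overlapped (log2 fold change 0.02, SE 0.089, edgeR adjusted p = 0.88).

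The eIF2α kinases themselves and the OMA1 relay, which carries mitochondrial stress to the kinase HRI, counted 3 higher and 3 lower of 9. Eif2ak3, the gene of the kinase PERK, was among the higher calls (log2FC 0.80, edgeR adjusted p = 0.0483). That call was lost with DESeq2 size factors, no count filter, the DESeq2 Wald test, the replicate block, the outer position term and without CT010467.1. It was also lost without antimycin replicate 3 (edgeR adjusted p = 0.239) or any 1 of the oligomycin libraries. Impact, an inhibitor of the kinase GCN2, stood at 198, 202 and 209 CPM with antimycin, 88.5, 94.8 and 88.2 CPM with oligomycin and 68.5, 62.5 and 65.9 CPM with DMSO, the antimycin libraries above the others (log2 fold change 1.16, SE 0.067, edgeR adjusted p = 5.24e-15). Eif2ak1, the gene of HRI, stood at 28.3, 33.3 and 22.4 CPM with antimycin, 43.5, 42.8 and 39.6 CPM with oligomycin and 42.6, 46.2 and 48.7 CPM with DMSO, the antimycin libraries below the others (log2 fold change -0.58, SE 0.12, edgeR adjusted p = 0.000159). Eif2ak4, the gene of GCN2, had a log2FC of -0.30 (edgeR adjusted p = 0.0909) and Oma1 one of -0.15 (edgeR adjusted p = 0.426), neither past the threshold. Without oligomycin replicate 3, Eif2ak4 was past it (log2FC -0.43, edgeR adjusted p = 0.0224).

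Enzymes of amino acid synthesis were more often lower than higher. Of 24 tested, 5 were higher, 11 were lower and 8 did not pass the threshold (median -0.23). Pycr1, the last enzyme of proline synthesis in mitochondria, stood at 12.9, 10.7 and 11.5 CPM with antimycin, 55.2, 58.7 and 59.2 CPM with oligomycin and 12.3, 11.1 and 12.7 CPM with DMSO. Antimycin libraries and DMSO libraries overlapped, and only the oligomycin libraries were raised (log2 fold change -2.30, SE 0.089, edgeR adjusted p = 3.2e-19). Cth, the enzyme that releases cysteine from cystathionine, stood at 100.4, 93.7 and 88.9 CPM with antimycin, 222, 228 and 237 CPM with oligomycin and 12.1, 10.6 and 11.1 CPM with DMSO. Both inhibitors raised it, and the mean with oligomycin was 2.43-fold that with antimycin (log2 fold change -1.28, SE 0.084, edgeR adjusted p = 1.12e-13).

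Not all enzymes followed. Asns, asparagine synthetase, stood at 570.4, 601 and 567 CPM with antimycin, 562, 587 and 542 CPM with oligomycin and 166, 165 and 163 CPM with DMSO, with overlapping inhibitor groups far above DMSO (log2 fold change 0.04, SE 0.047, edgeR adjusted p = 0.508). Mthfd2, of mitochondrial one-carbon metabolism, stood at 591, 579.7 and 552 CPM with antimycin, 369, 372 and 343 CPM with oligomycin and 131, 120.4 and 124 CPM with DMSO and was higher with antimycin (log2 fold change 0.67, SE 0.044, edgeR adjusted p = 1.49e-13). Psph, the last enzyme of serine synthesis, was lower with a log2FC of -0.87.

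Amino acid transporters split evenly, with 6 of 17 tested higher and 6 lower (median -0.13, and -0.20 without oligomycin replicate 3). Slc1a5, the glutamine carrier ASCT2, stood at 23.3, 24.8 and 23.1 CPM with antimycin, 88.4, 88.7 and 86.2 CPM with oligomycin and 20.9, 25.4 and 24.8 CPM with DMSO. As with Pycr1, antimycin and DMSO libraries overlapped and oligomycin stood apart (log2 fold change -1.89, SE 0.093, edgeR adjusted p = 1.09e-16). Slc7a11, the cystine carrier, stood at 12.2, 14.1 and 9.97 CPM with antimycin, 30.9, 31.4 and 29.6 CPM with oligomycin and 2.31, 3.47 and 4.75 CPM with DMSO, raised by both and more by oligomycin (log2 fold change -1.34, SE 0.17, edgeR adjusted p = 9.26e-08). Slc7a1, a carrier of arginine and lysine, stood at 326, 289 and 298 CPM with antimycin, 158, 147 and 149.5 CPM with oligomycin and 61.7, 51.3 and 51.7 CPM with DMSO, in the reverse order (log2 fold change 1.01, SE 0.068, edgeR adjusted p = 1.89e-13). Of 20 cytosolic tRNA synthetases, which charge tRNAs with amino acids, 5 were higher and 9 lower, with a median of -0.03.

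The promoters of 4 genes of the ISR and amino acid lists are shown because each holds the composite element bound by ATF4 with C/EBP partners (CARE, TGATGNAA), in capitals, although 2 of the genes were higher with antimycin and 2 were lower. They come from the same RefSeq table and build. Atf3 lies at chr1:191183284-191183583, Fgf21 at chr7:45615441-45615740, Pycr1 at chr11:120643699-120643998 and Slc7a11 at chr3:50443564-50443863, all on the minus strand.
Atf3: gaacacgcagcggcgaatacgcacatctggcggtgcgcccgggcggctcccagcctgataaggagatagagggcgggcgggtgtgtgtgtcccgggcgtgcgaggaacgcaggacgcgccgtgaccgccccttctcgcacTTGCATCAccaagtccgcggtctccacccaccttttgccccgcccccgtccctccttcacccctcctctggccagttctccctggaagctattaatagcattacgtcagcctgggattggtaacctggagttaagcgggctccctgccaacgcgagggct
Fgf21: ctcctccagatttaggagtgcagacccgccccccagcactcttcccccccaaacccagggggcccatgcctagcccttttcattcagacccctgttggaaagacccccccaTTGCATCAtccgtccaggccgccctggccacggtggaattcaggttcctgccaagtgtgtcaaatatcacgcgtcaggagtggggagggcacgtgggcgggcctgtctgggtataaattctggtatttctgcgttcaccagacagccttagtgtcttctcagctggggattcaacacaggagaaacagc
Pycr1: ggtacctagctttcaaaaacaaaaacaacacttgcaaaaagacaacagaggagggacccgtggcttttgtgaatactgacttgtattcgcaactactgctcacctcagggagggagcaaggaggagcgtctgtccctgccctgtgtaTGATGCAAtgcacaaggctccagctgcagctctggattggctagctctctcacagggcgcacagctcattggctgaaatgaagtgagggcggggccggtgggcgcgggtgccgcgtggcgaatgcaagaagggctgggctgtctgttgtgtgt
Slc7a11: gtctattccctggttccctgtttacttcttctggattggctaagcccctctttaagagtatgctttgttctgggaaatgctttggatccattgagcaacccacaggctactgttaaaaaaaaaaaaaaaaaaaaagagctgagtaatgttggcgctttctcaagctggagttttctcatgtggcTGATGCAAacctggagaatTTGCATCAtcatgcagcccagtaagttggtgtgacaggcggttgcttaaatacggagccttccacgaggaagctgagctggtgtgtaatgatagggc
The element was searched on both strands and shares no full match with the CRE. Matches on the opposite strand are shown as they read on the strand of the gene. The element was found in 3.97% of all promoters and in 2.11% of those of tested genes, in 7 of 26 promoters (26.9%) of the ISR list, 4 of 20 (20%) of the amino acid synthesis list, 4 of 27 (14.8%) of the transporter list and 5 of 12 (41.7%) of the tRNA synthetase list. The transporter promoters with a match include those of Slc7a7, which was not tested. Tested genes that hold the element ran in both directions. Atf3 (2.48), Fgf21 (1.91), Chac1, which degrades glutathione (1.47), and Trib3, a pseudokinase that restrains ATF4 (0.93), were higher, and Pycr1 (-2.30), Vldlr (-1.66) and Slc7a11 (-1.34) were lower. Among genes at least 2-fold higher, 2.47% of promoters held the element, and among those at least 2-fold lower 2.76%.

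Chaperones of the endoplasmic reticulum (ER) and the XBP1 branch of the unfolded protein response formed the largest list without a lower call. Of 23 tested, 18 were higher and none was lower, with a median of 0.67. Hspa5, the gene of the central chaperone BiP, stood at 3061, 3206 and 3090.0 CPM with antimycin, 1571, 1612 and 1588 CPM with oligomycin and 762, 736 and 736 CPM with DMSO. The groups did not overlap, with oligomycin between DMSO and antimycin (log2 fold change 0.97, SE 0.042, edgeR adjusted p = 4.33e-18). Dnajb9, a cochaperone and XBP1 target, stood at 113, 118 and 119 CPM with antimycin, 32.2, 33.5 and 33.9 CPM with oligomycin and 25.9, 29.2 and 28.2 CPM with DMSO, where oligomycin was close to DMSO (log2 fold change 1.81, SE 0.083, edgeR adjusted p = 1.7e-17). Creld2, an ER stress-inducible protein, stood at 63.8, 64.2 and 64.8 CPM with antimycin, 38.2, 38.3 and 39.1 CPM with oligomycin and 97.1, 103 and 104 CPM with DMSO. It was higher with antimycin than with oligomycin (log2 fold change 0.74, SE 0.056, edgeR adjusted p = 2.65e-12), yet both inhibitors lay below DMSO.

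The promoters of Hspa5 and Creld2 are shown because both hold the ER stress response element (ERSE, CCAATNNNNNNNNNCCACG, searched on both strands), the site of ATF6 with NF-Y, while their order against DMSO differed. Capitals mark the match. Hspa5 lies at chr2:34771840-34772139 and Creld2 at chr15:88819396-88819695, both on the plus strand, from the same table and build.
Hspa5: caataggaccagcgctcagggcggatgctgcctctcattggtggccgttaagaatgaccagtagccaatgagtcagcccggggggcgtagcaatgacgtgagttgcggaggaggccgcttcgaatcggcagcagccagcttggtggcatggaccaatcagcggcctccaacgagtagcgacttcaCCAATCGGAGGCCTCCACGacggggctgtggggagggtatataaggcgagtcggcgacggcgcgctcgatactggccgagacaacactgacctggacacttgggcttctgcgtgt
Creld2: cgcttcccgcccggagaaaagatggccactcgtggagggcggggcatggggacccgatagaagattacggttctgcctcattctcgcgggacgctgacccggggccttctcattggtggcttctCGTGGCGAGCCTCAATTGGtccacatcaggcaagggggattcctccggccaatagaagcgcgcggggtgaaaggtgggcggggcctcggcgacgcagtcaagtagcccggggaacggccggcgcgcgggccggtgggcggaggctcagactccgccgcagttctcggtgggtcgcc
The element was found in 0.119% of all promoters, in 0.133% of those of tested genes and in 9 of 20 (45%) of the list's promoters, 1 of them that of Derl3, which was not tested. None of the 648 promoters of genes at least 2-fold higher and none of the 652 of genes at least 2-fold lower held it. Of 16 HSF1 heat shock genes, which answer misfolding in the cytosol, 7 were higher and 3 lower (median 0.35).

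Targets of p53 counted 13 higher and 6 lower of 33 tested (median 0.17, and 0.10 without antimycin replicate 2). Pmaip1, which encodes the BH3-only death factor NOXA and is also a target of ATF4 and CHOP, stood at 204, 199 and 212 CPM with antimycin, 16.6, 16.3 and 15.6 CPM with oligomycin and 7.53, 6.19 and 6.73 CPM with DMSO. Antimycin libraries were 12.7-fold above oligomycin libraries (log2 fold change 3.66, SE 0.11, edgeR adjusted p = 4.55e-22). Plk3, a stress-responsive polo kinase, stood at 93.9, 71.5 and 90.5 CPM with antimycin, 11.7, 11.5 and 19.99 CPM with oligomycin and 2.84, 3.403 and 2.69 CPM with DMSO (log2 fold change 2.58, SE 0.26, edgeR adjusted p = 9.49e-10). Cdkn1a, the cell cycle inhibitor p21 and the classical p53 target, differed less, at 182, 194 and 193 CPM with antimycin, 133, 131 and 126 CPM with oligomycin and 111, 118 and 112 CPM with DMSO (log2 fold change 0.55, SE 0.051, edgeR adjusted p = 3.38e-10). Trp53inp1, a promoter of p53-dependent death, stood at 10.96, 10.2 and 6.53 CPM with antimycin, 9.16, 6.11 and 9.54 CPM with oligomycin and 12.6, 12.9 and 8.25 CPM with DMSO with overlapping groups (log2 fold change 0.17, SE 0.27, edgeR adjusted p = 0.632).

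Nucleotide synthesis was mostly lower with antimycin, in 16 of 26 genes, with 7 higher and a median of -0.24. The 7 higher calls became 4 without oligomycin replicate 3. Gart, a trifunctional enzyme of purine synthesis, stood at 76.5, 70.9 and 67.5 CPM with antimycin, 130.2, 139 and 129 CPM with oligomycin and 97.8, 109.5 and 106 CPM with DMSO, where oligomycin lay above and antimycin below DMSO (log2 fold change -0.89, SE 0.068, edgeR adjusted p = 3e-12). Dhodh, the pyrimidine enzyme that passes electrons to ubiquinone, was lower with a log2FC of -0.40 (edgeR adjusted p = 0.00209), and Ctps, CTP synthase, was higher (0.41).

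Genes of DNA replication and S phase were lower in 19 of 40 and higher in 7 (median -0.15). The 7 higher calls became 4 without antimycin replicate 2. Ung, the glycosylase that removes uracil from DNA, stood at 0.783, 0.561 and 0.687 CPM with antimycin, 9.77, 8.03 and 9.77 CPM with oligomycin and 15.4, 16.2 and 13.6 CPM with DMSO. Every antimycin library was below 1 CPM, and the mean with oligomycin was 13.6-fold that with antimycin (log2 fold change -3.73, SE 0.26, edgeR adjusted p = 4.13e-13). Ccne2, a cyclin of S phase entry, stood at 13.4, 9.197 and 9.74 CPM with antimycin, 31.8, 39.4 and 32.3 CPM with oligomycin and 78.1, 70.6 and 75.8 CPM with DMSO, with oligomycin between antimycin and DMSO (log2 fold change -1.67, SE 0.12, edgeR adjusted p = 8.01e-13). Tk1, the thymidine kinase of S phase, stood at 34.8, 29.9 and 38.5 CPM with antimycin, 72.6, 75.7 and 70.4 CPM with oligomycin and 177, 183 and 189 CPM with DMSO in the same order (log2 fold change -1.08, SE 0.058, edgeR adjusted p = 7.72e-16).

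Of 34 genes of G2 and mitosis, 21 were lower and 3 higher (median -0.26). Aurkb, a kinase of chromosome segregation, stood at 36.3, 29.2 and 34.1 CPM with antimycin, 58.96, 60.9 and 63.7 CPM with oligomycin and 103, 98.7 and 101 CPM with DMSO (log2 fold change -0.88, SE 0.067, edgeR adjusted p = 2.9e-12). Hmmr, a spindle protein, stood at 57.6, 67.97 and 55.4 CPM with antimycin, 118, 108 and 108 CPM with oligomycin and 114, 102 and 115 CPM with DMSO (log2 fold change -0.89, SE 0.073, edgeR adjusted p = 1.64e-11), where oligomycin overlapped DMSO. Among G1 cyclins and CDK inhibitors, 3 of 14 were higher and 4 lower. Ccnd2, a D-type cyclin, stood at 80.5, 93.9 and 88.8 CPM with antimycin, 194, 192 and 199 CPM with oligomycin and 62.5, 56.9 and 55.8 CPM with DMSO, highest with oligomycin (log2 fold change -1.15, SE 0.078, edgeR adjusted p = 2.13e-13). Ccnd1, another, was also lower with antimycin (-0.89). Myc, the growth factor-responsive regulator, stood at 348, 338 and 345 CPM with antimycin, 190.1, 186 and 183 CPM with oligomycin and 58.3, 58.9 and 65.6 CPM with DMSO, highest with antimycin (log2 fold change 0.88, SE 0.057, edgeR adjusted p = 6.54e-14).

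The 13 mRNAs encoded by mitochondrial DNA had the lowest median of all lists, -0.71, with 10 lower and 3 higher. All 13 take part in the respiratory chain or ATP synthase, and all but mt-Nd6 are cut from a long shared transcript of the heavy strand. mt-Nd1, a complex I subunit, stood at 998, 982 and 903 CPM with antimycin, 2360.0, 2050.0 and 2104 CPM with oligomycin and 2184, 1887 and 1710.0 CPM with DMSO. Oligomycin overlapped DMSO and antimycin lay below both (log2 fold change -1.18, SE 0.086, edgeR adjusted p = 1.35e-12). mt-Nd5 stood at 257, 234 and 229.6 CPM with antimycin, 536, 485 and 469 CPM with oligomycin and 506, 435 and 423 CPM with DMSO in the same order (log2 fold change -1.05, SE 0.093, edgeR adjusted p = 8.62e-11). mt-Cytb, the only subunit of complex III among them, differed less, at 716, 700.4 and 638 CPM with antimycin, 1005, 884 and 879 CPM with oligomycin and 1016, 874 and 809 CPM with DMSO (log2 fold change -0.43, SE 0.084, edgeR adjusted p = 7.97e-05).

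The 3 higher members are the 3 mitochondrially encoded subunits of complex IV. mt-Co3 stood at 1207, 1344 and 1280.0 CPM with antimycin, 844, 797 and 817 CPM with oligomycin and 1250.0, 1203 and 1122 CPM with DMSO, where antimycin overlapped DMSO and oligomycin lay below (log2 fold change 0.64, SE 0.058, edgeR adjusted p = 1.15e-10). mt-Co2 was higher with a log2FC of 0.33. mt-Co1 stood at 3012, 2527 and 2503 CPM with antimycin, 2430.0, 2129 and 2239 CPM with oligomycin and 2333, 2215 and 1966 CPM with DMSO (log2 fold change 0.24, SE 0.077, edgeR adjusted p = 0.00946), and its call was lost without antimycin replicate 1 (log2FC 0.15, edgeR adjusted p = 0.124) and without oligomycin replicate 2 (0.20, edgeR adjusted p = 0.0586). mt-Nd4l overlaps mt-Nd4, and mt-Atp8 overlaps mt-Atp6, so their counts are uncertain. The libraries were selected for polyadenylated RNA, and the part of that selection in the counts of mitochondrial mRNAs was not tested. Mitochondrial transcripts took 2.03 to 2.29% of counts with antimycin, 2.41 to 2.79% with oligomycin and 2.87 to 3.603% with DMSO.

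**Figure D4:**
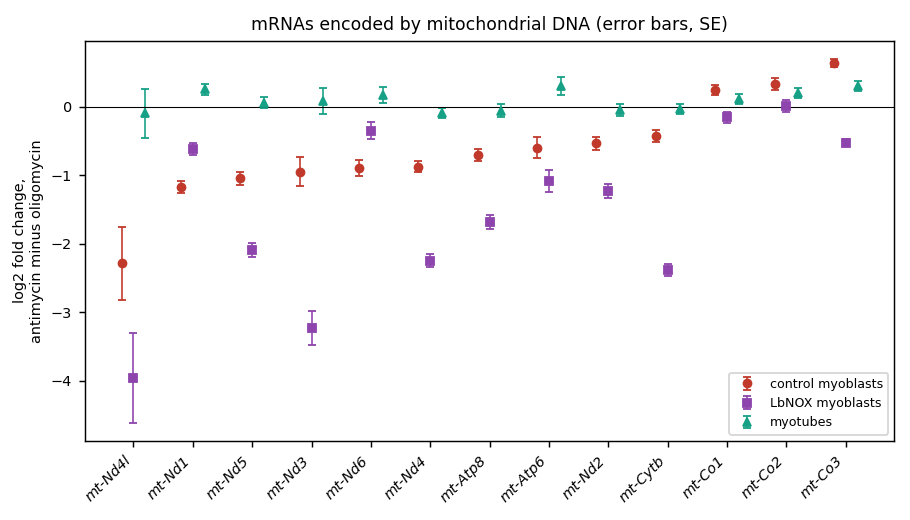
Log2 fold change, antimycin minus oligomycin, of the 13 mRNAs encoded by mitochondrial DNA (y axis, error bars SE) in control myoblasts (red circles), LbNOX myoblasts (purple squares) and myotubes (green triangles), each from 3 against 3 samples. In control myoblasts the 3 complex IV mRNAs lie above 0 and the other 10 below, from mt-Nd4l at -2.28 to mt-Co3 at 0.64.

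Lists of nuclear genes of the same complexes had medians nearer to 0. Complex I subunits counted 5 higher and 8 lower of 36 (median -0.03), and the 8 lower calls became 5 without antimycin replicate 1 or oligomycin replicate 2. Complex III, the target of antimycin, counted 3 higher and 4 lower of 16 (median 0.01), and the 3 higher calls became 1 without antimycin replicate 2 or with only the groups compared and 0 with no count filter. ATP synthase, the target of oligomycin, counted 3 higher and 10 lower of 20 (median -0.11), with 5 higher calls without antimycin replicate 1. Atp5g1, which encodes the c subunit that oligomycin binds, stood at 129, 125 and 132 CPM with antimycin, 186, 190.4 and 196 CPM with oligomycin and 152, 153 and 149 CPM with DMSO, highest with oligomycin (log2 fold change -0.57, SE 0.044, edgeR adjusted p = 3.9e-12). Atpif1, the inhibitor of reversed ATP hydrolysis, was lower as well (-0.29).

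Mitochondrial chaperones and proteases counted 5 higher and 8 lower of 19 (median 0.04). Hspd1, the chaperonin HSP60, stood at 839, 892 and 857 CPM with antimycin, 1265, 1252 and 1215 CPM with oligomycin and 781, 751 and 750.4 CPM with DMSO, highest with oligomycin (log2 fold change -0.53, SE 0.036, edgeR adjusted p = 3.01e-13). Lonp1, the matrix protease, stood at 113, 114 and 122 CPM with antimycin, 182, 171 and 184 CPM with oligomycin and 30.9, 36.4 and 32.4 CPM with DMSO, raised by both inhibitors and more by oligomycin (log2 fold change -0.62, SE 0.11, edgeR adjusted p = 1.4e-05). Grpel2, a nucleotide exchange factor of mitochondrial HSP70, went the other way (1.04). Shuttles that move NADH equivalents into mitochondria counted 5 higher and 2 lower of 16 (median 0.03), and the 2 lower calls became 1 without antimycin replicate 3 or any 1 of the oligomycin libraries. Regulators of mitochondrial biogenesis and dynamics counted 2 higher and 6 lower of 20, where the 6 lower calls became 2 without oligomycin replicate 1, 3 without oligomycin replicate 2 and 4 without antimycin replicate 1 or 3, and the 2 higher calls became 1 without oligomycin replicate 1, oligomycin replicate 2 or antimycin replicate 2.

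Glycolytic genes as a list had a median of 0.00, with 7 higher and 7 lower of 20, and the 7 lower calls became 4 without oligomycin replicate 1. Slc2a1, the glucose carrier GLUT1, stood at 272, 259.9 and 257 CPM with antimycin, 71.1, 63.9 and 64.7 CPM with oligomycin and 45.9, 45.3 and 40.6 CPM with DMSO, with antimycin far above both others (log2 fold change 1.98, SE 0.078, edgeR adjusted p = 4.15e-19). Hk2, the inducible hexokinase, stood at 178, 165 and 166 CPM with antimycin, 97.6, 85.3 and 80.3 CPM with oligomycin and 18.6, 17.1 and 18.02 CPM with DMSO, raised by both inhibitors and more by antimycin (log2 fold change 0.95, SE 0.095, edgeR adjusted p = 1.01e-09). Among 8 genes of glucose sensing by MondoA, 2 were higher and 2 lower. Txnip, an arrestin that retains GLUT1 inside the cell and the leading MondoA target, stood at 0.587, 1.01 and 0.229 CPM with antimycin, 5.19, 3.35 and 4.43 CPM with oligomycin and 3.81, 2.52 and 3.59 CPM with DMSO, lowest with antimycin at few counts (log2 fold change -2.80, SE 0.36, edgeR adjusted p = 1.67e-07).

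Targets of the hypoxia factor HIF counted 12 higher and 4 lower of 26 (median 0.21). Vegfa, the angiogenic growth factor, stood at 26.5, 32.5 and 31.04 CPM with antimycin, 15.7, 15.9 and 12.6 CPM with oligomycin and 4.698, 3.61 and 4.57 CPM with DMSO, with oligomycin between DMSO and antimycin (log2 fold change 1.02, SE 0.17, edgeR adjusted p = 1.22e-05). Egln3, an oxygen-sensing prolyl hydroxylase and a classical HIF target, stood at 3.92, 3.03 and 1.72 CPM with antimycin, 8.73, 12.7 and 6.02 CPM with oligomycin and 29.8, 23.3 and 26.3 CPM with DMSO, in the reverse order (log2 fold change -1.66, SE 0.23, edgeR adjusted p = 7.15e-07). The list thus held genes that went in opposite directions.

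Genes of the antioxidant factor NRF2 were split, with 9 higher and 8 lower of 26 (median -0.03). Hmox1, heme oxygenase, stood at 542, 534 and 536 CPM with antimycin, 108, 94.3 and 102 CPM with oligomycin and 40.1, 39.7 and 37.1 CPM with DMSO, far higher with antimycin (log2 fold change 2.40, SE 0.072, edgeR adjusted p = 4.64e-22). Sqstm1, the autophagy receptor p62, stood at 3832, 3830.0 and 3761 CPM with antimycin, 1667, 1634 and 1605 CPM with oligomycin and 458, 491 and 486 CPM with DMSO in the same order (log2 fold change 1.22, SE 0.031, edgeR adjusted p = 1.16e-23). Nqo1, a quinone reductase and the usual NRF2 reporter, stood at 38.4, 37.6 and 34.9 CPM with antimycin, 60.4, 61.7 and 63.6 CPM with oligomycin and 68.2, 72.6 and 76.1 CPM with DMSO, lowest with antimycin (log2 fold change -0.74, SE 0.073, edgeR adjusted p = 6.98e-10). Gclm, of glutathione synthesis, did not pass the test (edgeR adjusted p = 0.995). The metallothioneins Mt1 (1.46) and Mt2 (1.56), which bind zinc, were both higher.

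Autophagy and lysosome genes were higher in 19 of 30 and lower in 3 (median 0.51). Flcn, folliculin, which links nutrient state to the lysosomal factors TFEB and TFE3, stood at 92.2, 91.1 and 83.96 CPM with antimycin, 40.03, 34.1 and 37.5 CPM with oligomycin and 31.02, 35.3 and 34.4 CPM with DMSO, where oligomycin overlapped DMSO (log2 fold change 1.26, SE 0.097, edgeR adjusted p = 4.14e-12). Its partner Fnip1 was higher as well (1.32). Wipi1, a protein of early autophagosomes, was lower (log2 fold change -1.01, SE 0.085, edgeR adjusted p = 2.82e-11). Cd68, a lysosomal membrane protein that is also the only macrophage marker that passed the count filter, stood at 6.17, 5.38 and 5.84 CPM with antimycin, 0.605, 0.837 and 0.795 CPM with oligomycin and 1.06, 0.885 and 0.807 CPM with DMSO, highest with antimycin at few counts (log2 fold change 2.94, SE 0.39, edgeR adjusted p = 2.59e-07), and the part of other cells in its level was not tested.

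Sterol synthesis, under control of SREBP2, counted 10 higher and 7 lower of 25 (median 0.13, and 0.07 without antimycin replicate 1 and 0.08 without oligomycin replicate 1), with list medians against DMSO of -1.15 for antimycin and -1.32 for oligomycin. Idi1, an isomerase of the isoprenoid branch, stood at 13.7, 13.01 and 14.1 CPM with antimycin, 26.5, 25.02 and 23.6 CPM with oligomycin and 152, 148 and 146 CPM with DMSO, with both inhibitors far below DMSO and antimycin the lowest (log2 fold change -0.88, SE 0.087, edgeR adjusted p = 7.63e-10).

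Core clock and clock output genes were higher in 12 of 16 tested and lower in none (median 1.08). Per1, a repressor of the loop that also answers to CREB, stood at 27.4, 29.9 and 28.3 CPM with antimycin, 7.78, 8.45 and 5.22 CPM with oligomycin and 10.02, 10.7 and 8.34 CPM with DMSO, highest with antimycin (log2 fold change 1.98, SE 0.15, edgeR adjusted p = 5.7e-12). Arntl, which encodes the activator BMAL1, stood at 75.8, 69.1 and 68.96 CPM with antimycin, 31.6, 27.4 and 28.2 CPM with oligomycin and 12.4, 12.7 and 12.7 CPM with DMSO, with oligomycin between DMSO and antimycin (log2 fold change 1.29, SE 0.11, edgeR adjusted p = 2.63e-11). Ciart, a repressor of BMAL1, was higher as well (1.79). Activators and repressors of the loop were thus higher together.

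Of 9 myogenic factors tested, 5 were higher and 1 lower (median 0.58). Myf5, a determination factor of myoblasts, stood at 125, 133 and 132 CPM with antimycin, 14.2, 14.1 and 17.6 CPM with oligomycin and 12.3, 9.87 and 9.51 CPM with DMSO, with antimycin far above the rest (log2 fold change 3.09, SE 0.13, edgeR adjusted p = 2.36e-18). Myod1, the other determination factor, stood at 151, 145 and 129.8 CPM with antimycin, 60.9, 65.3 and 70.2 CPM with oligomycin and 115, 117 and 122 CPM with DMSO, where oligomycin lay below DMSO and antimycin above it (log2 fold change 1.12, SE 0.069, edgeR adjusted p = 2.01e-14). Myogenin, which drives differentiation, had 2 to 6 counts in the 6 libraries and 2 to 8 with DMSO and was not tested. Of the 5 myotube markers tested, 1 was higher, and 2 were without antimycin replicate 2. The marker called was Acta1, skeletal muscle actin, at 90.4, 80.98 and 83.6 CPM with antimycin, 28.6, 24.2 and 21.1 CPM with oligomycin and 18.3, 13.9 and 15.1 CPM with DMSO (log2 fold change 1.78, SE 0.13, edgeR adjusted p = 2.15e-12). Its sequence is close to that of the other actins, so its estimated counts are uncertain.

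Collagens and matrix genes counted 13 higher and 3 lower of 23 (median 0.34). Timp1, an inhibitor of matrix metalloproteinases, stood at 220.3, 242 and 234 CPM with antimycin, 547, 546 and 550.3 CPM with oligomycin and 302, 299 and 305 CPM with DMSO, highest with oligomycin (log2 fold change -1.24, SE 0.043, edgeR adjusted p = 2.14e-20). Timp3, another such inhibitor, stood at 1686, 1715 and 1683 CPM with antimycin, 755, 741 and 721 CPM with oligomycin and 229, 217 and 232 CPM with DMSO, highest with antimycin (log2 fold change 1.20, SE 0.040, edgeR adjusted p = 5.33e-21).

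Of 14 snoRNA host genes, many of whose transcripts are degraded when translated, 6 were higher and 4 lower (median 0.02). Snhg1 stood at 216, 236 and 223 CPM with antimycin, 84.6, 87.8 and 85.98 CPM with oligomycin and 32.4, 31.4 and 30.9 CPM with DMSO, with oligomycin between DMSO and antimycin (log2 fold change 1.39, SE 0.075, edgeR adjusted p = 1.34e-15). Of 30 genes of ribosome biogenesis, 10 were higher and 12 lower, with a median of -0.01 beside the 0.03 of all genes.

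In some genes the DMSO libraries lay between the inhibitors, above one and below the other. The following were picked for that order and are given as a description, with no test. Ndrg4 stood at 148, 159.6 and 149 CPM with antimycin, 11.6, 15.4 and 9.77 CPM with oligomycin and 45.03, 42.9 and 44.03 CPM with DMSO. Lmcd1, a LIM protein, stood at 29.6, 24.6 and 30.1 CPM with antimycin, 0.778, 1.09 and 1.14 CPM with oligomycin and 3.55, 4.36 and 5.11 CPM with DMSO. In Csrnp1 (3.90), Plin4 (3.73) and Prrg4 (3.46), antimycin was likewise the highest and oligomycin the lowest group. Fubp1, which encodes a regulator of Myc transcription, stood at 26.7, 24.00 and 25.4 CPM with antimycin, 133, 132 and 133 CPM with oligomycin and 119, 125 and 117 CPM with DMSO. Angptl4, an inhibitor of lipoprotein lipase, stood at 50.1, 51.9 and 41.1 CPM with antimycin, 259, 249 and 248 CPM with oligomycin and 208, 206 and 207 CPM with DMSO. In Ifi211 (-2.39), Map2k3os (-2.51) and Tmem199 (-2.18), oligomycin was likewise the highest and antimycin the lowest group.

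The same contrast was then read in myoblasts expressing LbNOX, a bacterial oxidase that turns NADH in the cytosol back to NAD+ without the ETC, to ask which differences between the inhibitors hold when cytosolic NADH is kept oxidized. Of 11978 genes, 5911 (49.3%) differed there, 2918 (24.4%) higher and 2993 (25%) lower with antimycin. Genes called in both lines numbered 3534, which is 59% of the calls in control myoblasts and 59.8% of those in LbNOX myoblasts, and of these 2385 (67.5%) had the same direction and 1149 the opposite. The contrasts share no samples. The LbNOX transgene itself had 2189 to 3084 counts in the antimycin libraries and 5925 to 10412 in the oligomycin libraries of that line, at total counts of 7796879 to 11227722, so its level moved with the contrast, and its part in the values that follow was not tested. No LbNOX count was found in control myoblasts. The difference of the contrast between the lines was itself past the threshold for 5241 genes (43.8%), 2829 of them (23.6% of genes tested) with a higher value in control myoblasts and 2412 (20.1%) with a lower one.

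The ISR list took the opposite order. None of 21 members was higher and 18 were lower in LbNOX myoblasts (median -1.57), and the difference between the lines passed the threshold in the direction of control myoblasts for 18 members. Atf4 had a log2FC of -1.99 (SE 0.033) in LbNOX against 1.12 in control myoblasts, a difference of 3.11 (edgeR adjusted p = 1.16e-29). For Atf3 the values were -2.97 (SE 0.22) and 2.48 (difference 5.45, edgeR adjusted p = 7.57e-17), and for Ddit3 -2.02 and 1.15 (difference 3.17, edgeR adjusted p = 7.01e-23). Gdf15 was not called in LbNOX myoblasts (0.24, edgeR adjusted p = 0.0522).

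Several genes that were higher with oligomycin in control myoblasts were so in LbNOX myoblasts as well. Pycr1 had -1.14, Slc1a5 -1.21, Cth -1.17 and Vldlr -1.86, all past the threshold. For Cth and Vldlr the difference between the lines was not past it (edgeR adjusted p = 0.495 and 0.472). The tRNA synthetases, split in control myoblasts, were lower in 17 of 20 and higher in 1, and snoRNA hosts were lower in 12 of 14.

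S phase genes went the other way. They were higher in 29 of 40 and lower in 3 in LbNOX myoblasts (median 0.45), and the difference passed the threshold toward lower values in control myoblasts for 28. Genes of G2 and mitosis counted 4 of 34 higher and 22 lower in LbNOX myoblasts (median -0.32), beside 3 and 21 in control myoblasts (median -0.26), and the difference between the lines passed the threshold for 20 of them, toward higher values in control myoblasts for 9 and toward lower values for 11. Ccne1, a cyclin of S phase entry, had 0.96 there and -1.29 in control myoblasts (difference -2.25, edgeR adjusted p = 2.31e-14). Sterol genes were higher in 24 of 25 and lower in none (median 0.71), with Idi1 at 1.67 against -0.88. Targets of p53 were higher in 24 of 33 (median 0.67), with Cdkn1a at 1.61 and Trp53inp1 at 2.52 (difference from control myoblasts -2.35, edgeR adjusted p = 7.54e-06).

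Early response genes were split in LbNOX myoblasts, with 7 higher and 8 lower of 22 (median -0.14). Nr4a1 stayed higher with antimycin at 1.40, less than in control myoblasts (difference 3.08, edgeR adjusted p = 4.64e-09), while Klf6 turned to -0.72. Mitochondrial mRNAs were lower in 11 of 13 (median -1.24), and mt-Cytb had -2.39 against -0.43 in control myoblasts (difference 1.96, edgeR adjusted p = 3.69e-14). ER chaperones counted 14 higher and 3 lower of 23 in LbNOX myoblasts, and the difference between the lines passed the threshold toward higher values in control myoblasts for 10 and toward lower values for 1.

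In differentiated myotubes, which no longer divide, the inhibitors differed less. Of 12591 genes tested, 2364 (18.8%) passed the threshold, 934 (7.42%) higher and 1430 (11.4%) lower with antimycin, and the 934 became 590 without oligomycin replicate 2 of the myotubes. Among 11721 genes tested in both cell states, 1415 were called in each, which is 23.8% of the myoblast calls and 64.7% of the myotube calls, and 776 of these (54.8%) had the same direction. The difference between the cell states was past the threshold for 4546 genes (36.1%), 2438 (19.4%) with a higher value in myoblasts and 2108 (16.7%) with a lower one. That difference comes from a model of both cell states and can depart a little from the subtraction of the values printed. These myoblasts and the myotubes also differ in the luciferase gene, doxycycline and serum. The parts of these and of cell state in the difference cannot be told apart.

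The ISR list was lower with antimycin in 16 of 21 members in myotubes and higher in none (median -1.19). Atf3 had -4.05 against 2.48 in myoblasts (difference 6.50, edgeR adjusted p = 5.3e-21) and Gdf15 -2.31 against 3.16 (difference 5.44, edgeR adjusted p = 5.18e-19). Genes of ribosome biogenesis were lower in 26 of 30 and tRNA synthetases in 17 of 20. Ptgs2 turned from 2.73 to -3.47 (difference 6.17, edgeR adjusted p = 6.81e-21). Mitochondrial mRNAs had a median of 0.08, with none lower, and immediate early genes one of -0.02. Avil, Pycr1 and Cth were higher with oligomycin in myotubes too, at -3.39, -1.02 and -1.60.

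**Figure D5:**
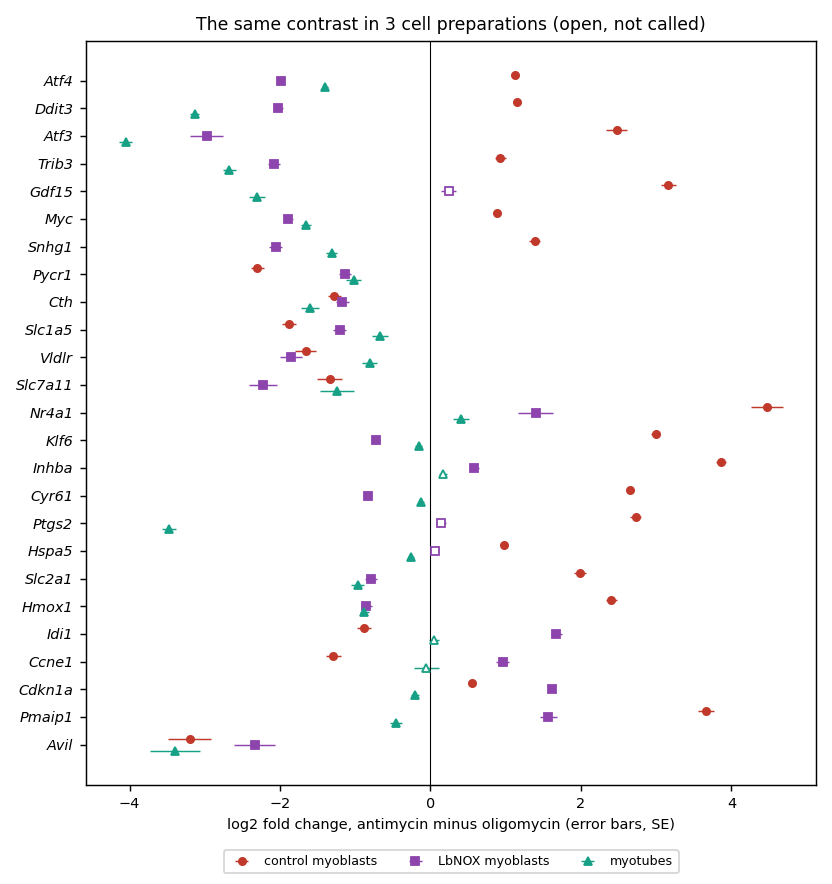
Log2 fold change, antimycin minus oligomycin (x axis, error bars SE), of 25 genes in control myoblasts (red circles), LbNOX myoblasts (purple squares) and myotubes (green triangles), each from 3 against 3 samples; open symbols did not pass the test. Genes from Atf4 to Snhg1 lie above 0 in control myoblasts and, except Gdf15 in LbNOX myoblasts, below 0 in the other cells, while Pycr1, Cth, Slc1a5, Vldlr, Slc7a11 and Avil lie below 0 in each.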

How the data were processed

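RNA from 24-well cultures was made into non-strand-specific, polyA-selected Smart-seq2 libraries. According to the methods and the labels, reads were demultiplexed with bcl2fastq 2.20.0.422 and quantified with kallisto 0.44 against Ensembl transcripts of mouse GRCm38.p6 with the transgene sequences added (the labels name mm10), and tximport summed them to genes. The deposited values are the resulting estimated counts per gene, summed by the authors over sequencing runs and not normalized. They were rounded to whole numbers, and transgene rows were kept out of the tests.

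Samples were grouped by their titles. Genes were kept if all replicates of 1 or more conditions had 16 counts or more, and were tested with edgeR 4.0.16 (quasi-likelihood F test, TMM normalization, R 4.3.3), in 1 model of the 37 myoblast samples of 10 hr with 13 groups, or, for myotubes, of the 24 samples of 8 groups. P-values were adjusted by the Benjamini-Hochberg method over all genes tested, with a threshold of 0.05, and SE was obtained from the fold change and its F statistic. Differences of the contrast between cells were tested as interaction terms in these models. The procedure was also run on simulated counts in which most genes were unchanged. That setting is unlike the data, so its outcome is not used as support. Totals of 9282791 to 12313851 counts in the 6 libraries limit precision for genes of few counts.

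The samples, gene lists and tests were chosen with earlier results of these data known. Genes were named by rule: the 10 called genes with the largest change in each direction among those with a mean of at least 50 counts and no overlap between groups, from each list up to 3 called genes per direction with a mean of at least 20 counts and members whose role the text needed, up to 5 per direction with DMSO between the inhibitors, and up to 5 per direction of each difference between cells. Some items are not reported here. Promoters were read from RefSeq tables of GRCm38.p6 and matched by symbol. The alternatives tried were DESeq2 1.42.0 size factors and its Wald test, no count filter, only the groups compared, a term for outer position, the replicate number as a block and each replicate left out. An alternative without the transcript CT010467.1 was chosen after seeing the data.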

Additional observations from a re-analysis of the deposited data

Results flagged for a closer look

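The contrast of antimycin with oligomycin differed between control and LbNOX myoblasts for 5241 genes and between control myoblasts and myotubes for 4546 genes, both by an interaction term (edgeR, Benjamini-Hochberg adjusted). The genes with the largest differences are given as values, control myoblasts minus the other cells on the log2 scale, and their causes were not tested.

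Against LbNOX myoblasts, the contrast was higher in control myoblasts for Cxcl10, a chemokine (6.51), Atf3, a stress factor (5.45), Zhx2, a transcriptional repressor (4.50), Cpne1, a calcium-dependent lipid-binding protein (4.42), and Gadd45a, a growth arrest gene (4.19). The value of Cxcl10 became 7.46 without antimycin replicate 2 of the LbNOX line. Cpne1 stood at 91.02, 99.5 and 93.1 CPM with antimycin, 46.7, 39.4 and 50.4 CPM with oligomycin and 61.8, 68.7 and 64.7 CPM with DMSO in control myoblasts, a log2FC of 1.06, beside -3.36 (SE 0.13) in LbNOX myoblasts. It thus moved in opposite directions in the lines. The contrast was lower in control myoblasts for Qrfp, a neuropeptide (-3.56), Ung (-3.54), Ddit4l, an inhibitor of mTORC1 (-3.16), and Zfp239, a zinc finger protein (-3.02). Ddit4l itself did not differ past the threshold in control myoblasts (log2FC -0.22, edgeR adjusted p = 0.663) and had 2.94 in LbNOX myoblasts.

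Against myotubes, the contrast was higher in myoblasts for Klhl40, a muscle ubiquitin ligase adaptor (8.04), Atf3 (6.50), Ptgs2 (6.17), Mylk4, a myosin light chain kinase (6.16), and Cxcl10 (6.03). Klhl40 had no count in the 3 oligomycin libraries of myoblasts, so its value depends on the prior count of the model. Genes of this comparison could pass the count filter and the mean count minimum through the myotube libraries alone. The myoblast levels of Mylk4, Trp63, Gcnt1, Camk2a, Atp9a and Inpp4b are not given, and their values may rest on few counts there. The value of Cxcl10 became 7.74 without antimycin replicate 3 of the myotubes and 5.33 without their oligomycin replicate 3. The contrast was lower in myoblasts for Trp63 (-5.90), Gcnt1 (-4.82), Camk2a (-4.38), Atp9a (-4.11) and Inpp4b (-3.89). Of these, Camk2a (-2.46, edgeR adjusted p = 0.313) and Trp63 (-3.49, edgeR adjusted p = 0.193) were not past the threshold without oligomycin replicate 2 of the myoblasts, and Atp9a (-2.39, edgeR adjusted p = 0.319) and Gcnt1 (-4.49, edgeR adjusted p = 0.0922) not without their oligomycin replicate 1. Both were also not past it without any 1 of the myoblast antimycin replicates (edgeR adjusted p = 0.0723 to 0.0829 for Atp9a and 0.0592 to 0.0663 for Gcnt1), nor was Atp9a with no count filter (edgeR adjusted p = 0.0614) or with only the groups compared (edgeR adjusted p = 0.0522). Groups of 3 samples were not examined for outlying samples.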

How the results depend on the processing

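Against the 5994 genes called in control myoblasts (3128 higher, 2866 lower), DESeq2 size factors gave 5931 (2929 and 3002), the DESeq2 Wald test 5777 (2859 and 2918), no count filter 5487 (2912 and 2575), only the groups compared 5589 (2813 and 2776), a term for outer position 6001 (3175 and 2826), and leaving out CT010467.1, chosen after seeing the data, 5968 (2949 and 3019). Leaving out 1 replicate gave 5398 to 5679. Every count of calls of a comparison stayed within 1.5 times its value under these, with 1 exception. The 934 genes higher in myotubes became 590 to 772 when 1 replicate was left out, the lowest without oligomycin replicate 2 of the myotubes. Under each alternative with all samples, 3 to 20 of the called values of named genes were no longer past the threshold, 1 passed it newly with the term for outer position, and the others kept their call and direction apart from those given next.

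Among single genes, values changed sign for genes not past the threshold: Fos had 0.0073 with the term for outer position and -0.33 to 0.12 when 1 replicate was left out (0.10 without antimycin replicate 2, 0.12 without oligomycin replicate 1), Trp53inp1 -0.012 (without oligomycin replicate 2) to 0.36, and Dusp6 -0.058 to 0.037 (without oligomycin replicate 3). The cause was not tested.

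Of the counts of genes in a list, these moved by over 1.5 times with all samples. With no count filter, the calls higher became 3 from 5 for NADH shuttles and for complex I, 4 from 7 for S phase, 0 from 3 for complex III, 1 from 3 for ATP synthase and 2 from 1 for myotube markers, and the calls lower 1 from 2 for NADH shuttles, interferon genes and actin genes, 5 from 8 for complex I, 3 from 6 for mitochondrial biogenesis and 1 from 0 for MAP kinase phosphatases. With only the groups compared, the calls higher became 4 from 7 for pyrimidine and purine synthesis, 3 from 5 for NADH shuttles, 3 from 7 for S phase, 1 from 3 for complex III and 1 from 2 for mitochondrial biogenesis, and the calls lower 1 from 2 for interferon genes and 2 from 1 for growth factors. S phase had 4 higher with the DESeq2 Wald test. Mitochondrial biogenesis had 1 higher with DESeq2 size factors, the Wald test, the replicate block and without CT010467.1. Growth factors had 2 lower with the Wald test and without CT010467.1, and myogenic factors had 2 lower with these and with size factors. Interferon genes had 1 lower with the term for outer position. Among list medians, those of 10 lists lay within 0.05 of 0 and moved by over 1.5 times under at least 1 of these alternatives. They spanned -0.11 to 0.07 for glycolysis, -0.05 to 0.02 for complex III and -0.02 to 0.02 for snoRNA hosts, which changed sign, -0.06 to -0.03 for tRNA synthetases, complex I and mitochondrial biogenesis, -0.08 to -0.03 for NRF2 genes, -0.05 to -0.01 for ribosome biogenesis, 0.01 to 0.04 for mitochondrial chaperones and 0.00 to 0.04 for NADH shuttles. When 1 replicate was left out, those of NRF2 genes, mitochondrial biogenesis and ribosome biogenesis changed sign as well, reaching 0.03, 0.02 and 0.03, and those of G1 cyclins spanned -0.30 to -0.06, of metallothioneins 0.07 to 0.30 and of the eIF2α kinases -0.30 to -0.03. With no count filter, the medians became 0.13 from -0.07 for MondoA, -0.07 from -0.11 for G1 cyclins, 0.03 from 0.17 for metallothioneins, -0.26 from -0.13 for amino acid transporters, 0.72 from 1.23 for MAP kinase phosphatases, 0.21 from 0.52 for myotube markers, 1.18 from -0.23 for endothelial markers and 0.25 from 2.94 for macrophage markers, lists that then hold more genes. With only the groups compared, they became -0.20 for amino acid transporters, 0.70 for MAP kinase phosphatases and 1.00 for myotube markers.

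Whether the replicate numbers pair the samples was not clear. Deviations of same-numbered antimycin and oligomycin libraries correlated across genes at -0.06, 0.19 and 0.21 in control myoblasts. In LbNOX myoblasts they correlated at 0.34, 0.09 and 0.19. In neither line did every sample correlate best with its own number. With the replicate block, 6075 genes were called in control myoblasts (3195 higher, 2880 lower), 5989 in LbNOX myoblasts and 2373 in myotubes, and the differences between cells were called for 5302 and 4538 genes.

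With 3 samples a group, doses that differ and 1 line of each kind, the comparison holds for these wells at 10 hr only.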

Other observations

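Actin cytoskeleton genes and targets of serum response factor (SRF), a regulator of actin and early genes, form a list that was chosen after its values were seen and are given as a description, with no test of the list. Of 27 tested, 24 were higher and 2 lower with antimycin, at a median log2FC of 0.61, beside 26.1% higher and 23.9% lower over all genes. Actg1, the cytoplasmic gamma actin, stood at 16670.0, 16690.0 and 16330.0 CPM with antimycin, 6163, 5913 and 5917 CPM with oligomycin and 5844, 5928 and 5832 CPM with DMSO, where oligomycin was near DMSO and antimycin above both (log2 fold change 1.47, SE 0.028, edgeR adjusted p = 4.52e-27). Vcl, vinculin of focal adhesions, stood at 808, 768 and 768 CPM with antimycin, 298, 276 and 276 CPM with oligomycin and 332, 332 and 333 CPM with DMSO, with oligomycin below DMSO (log2 fold change 1.46, SE 0.052, edgeR adjusted p = 3.1e-20). Srf itself stood at 27.2, 26.2 and 23.5 CPM with antimycin, 11.8, 10.8 and 11.1 CPM with oligomycin and 9.22, 10.5 and 8.25 CPM with DMSO (log2 fold change 1.19, SE 0.13, edgeR adjusted p = 5.59e-09). The actins share much of their sequence, so the split of reads among them is uncertain. The lower members were the tropomyosins Tpm3 (-0.33) and Tpm1 (-0.10). Tpm1 was not past the threshold without antimycin replicate 1 (edgeR adjusted p = 0.0748), antimycin replicate 3 (edgeR adjusted p = 0.0628) or oligomycin replicate 2 (edgeR adjusted p = 0.0615), nor with no count filter (edgeR adjusted p = 0.0506), so that the 2 lower calls became 1. In LbNOX myoblasts 13 of the list were higher and 4 lower (median 0.11), and in myotubes 11 and 3 (median 0.11). For Actg1 the contrast was 0.14 in LbNOX myoblasts, and the difference from control myoblasts was 1.33 (edgeR adjusted p = 4.7e-22).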
